A study of Rattus norvegicus with 4 samples.

Results

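L2/3 IT neurons are the excitatory neurons of the upper cortical layers, and their nuclei were examined here in single-nucleus RNA sequencing of the rat orbitofrontal cortex. The rats were male Sprague-Dawley animals, 8 weeks old, with no genetic alteration given in the labels. METH rats received methamphetamine at 1 mg/kg by intraperitoneal injection over 7 days, as a model of METH-induced sensitization, and saline rats received saline over the same 7 days. Each group had 2 libraries, and the cortex was taken from 4 animals per group. The labels do not tie the animals to the libraries, so each p-value measures the spread among libraries alone, and part of that spread may be technical.

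A nucleus was counted as excitatory when it held at least 3 UMIs of Slc17a7 and Camk2a together and at most 1 UMI of Gad1 and Gad2 together. A UMI is a unique molecular identifier and stands for 1 captured RNA molecule. An excitatory nucleus was counted as L2/3 IT when Cux2, Otof and Glis3 together gave at least 3 UMIs and more than 2 times the UMIs of each of 5 other panels, those of L4/5 IT, L5 ET, L5/6 NP, L6 CT and L6 IT neurons. This rule kept 3655 nuclei of 18407 in the excitatory gate and of 43903 that passed the filters on genes and mitochondrial UMIs. The METH libraries gave 769 and 864 L2/3 IT nuclei, and the saline libraries gave 1209 and 813. The other panels took 3584 nuclei as L4/5 IT, 1224 as L6 IT, 1644 as L6 CT, 711 as L5 ET and 315 as L5/6 NP. Because the rule reads these UMIs, the levels of its own genes describe the choice of nuclei and were not used as evidence.

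Intratelencephalic (IT) neurons send their axons within the telencephalon, to other cortical areas of either hemisphere and to the striatum, and those of the upper layers carry much of the traffic between cortical areas. They are distinguished from extratelencephalic (ET), near-projecting (NP) and corticothalamic (CT) neurons of the deeper layers. Methamphetamine enters nerve endings through monoamine transporters and makes them release dopamine, noradrenaline and serotonin, and the orbitofrontal cortex, which works in the valuation of outcomes, receives fibres of all of these systems.

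The 4 libraries differed in depth, and saline replicate 1 stood apart. Median UMIs per L2/3 IT nucleus were 6150 and 7516 in the METH libraries, against 3684 and 7091 in the saline libraries, with medians of 2772 and 3119 genes, against 1998 and 3001 genes. The summed L2/3 IT counts ran from 4918825 to 6933826 UMIs per library, so that saline replicate 1 made up its sum from more and shallower nuclei. Over all genes the library profiles were close, with Pearson correlations of log2 CPM, the count of a gene scaled by the summed count of its library between 0.987 and 0.991. Any 2 libraries shared 21 to 58 of their kept cell barcodes, and among L2/3 IT nuclei 2 barcodes were shared, both between METH replicate 1 and saline replicate 1.

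Of the genes of the rule, Cux2, a homeodomain transcription factor of upper-layer neurons, was detected in the highest share of nuclei. A Cux2 UMI was present in 97.0% and 97.8% of the L2/3 IT nuclei of the METH libraries, against 93.1% and 97.4% in the saline libraries. Glis3, a Krüppel-like zinc finger transcription factor, was detected in 71.4% and 78.1%, against 76.8% and 77.2%. Otof, which encodes the vesicle release protein otoferlin, was detected in 50.7% and 52.8%, against 42.3% and 56.0%. The lowest shares for Cux2 and Otof were in saline replicate 1, and the lowest for Glis3 was in METH replicate 1. Cux2 gave a mean of 4.14 and 5.01 UMIs per nucleus in METH, against 2.82 and 5.10 in saline, and Glis3 gave 2.92 and 3.99, against 2.57 and 4.402. All 3 genes were present together in 34.6% and 40.9% of the nuclei, against 26.6% and 44.0%.

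The threshold lay nearer to the bulk of the nuclei in the shallow library. The median UMIs of Cux2, Otof and Glis3 together were 7 and 8 per nucleus in the METH libraries, against 5 and 9 in the saline libraries. Nuclei with exactly 3 UMIs, just inside the rule, numbered 88 and 73 in the METH libraries, which is 11.4% and 8.45%, against 275 and 60 in the saline libraries, which is 22.7% and 7.38%. Just outside, with 2 UMIs and no UMI of any other panel, were 40 and 40 nuclei, against 224 and 25. The nuclei just inside had medians of 4123 and 5274 UMIs in the METH libraries, against 3017 and 4692 in the saline libraries, and those just outside had 4485 and 4551, against 2584 and 3751. Nuclei that reached 3 UMIs but failed the ratio to another panel numbered 415 and 439, against 428 and 383.

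**Figure D1:**
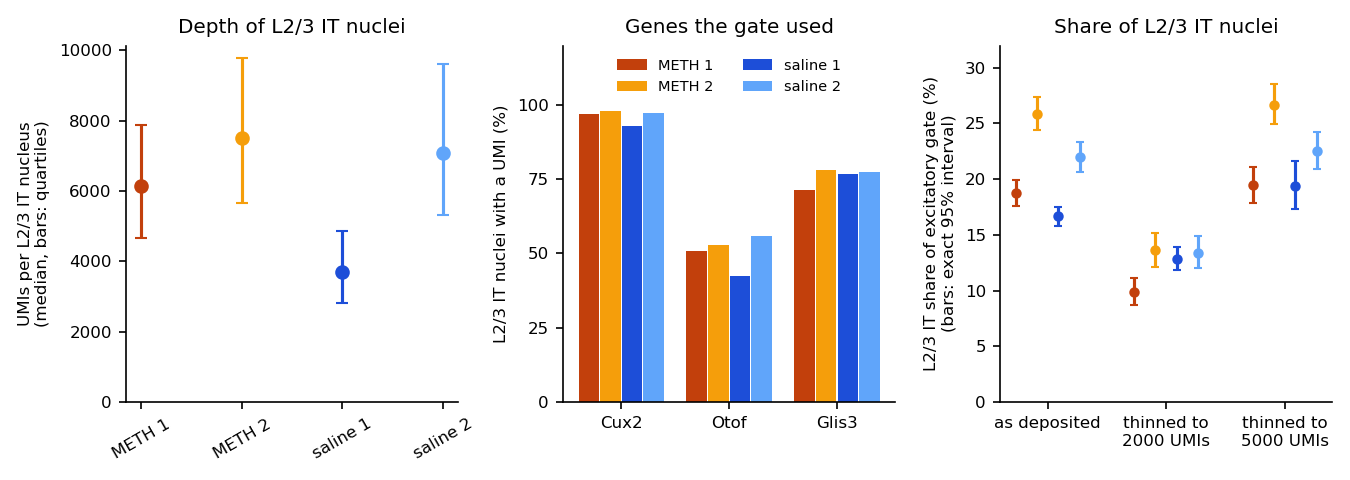
Median UMIs per L2/3 IT nucleus with quartiles, the percentage of L2/3 IT nuclei with a UMI of Cux2, Otof or Glis3, and the L2/3 IT percentage of excitatory nuclei with exact 95% intervals, each by library with METH left of saline. Saline replicate 1 has the lowest depth, at 3684 UMIs, and the L2/3 IT shares of the groups overlap as deposited and at 2000 and 5000 UMIs per barcode.

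L2/3 IT nuclei made up 18.7% (95% interval 17.6 to 19.96) and 25.8% (24.4 to 27.4) of the excitatory nuclei in the METH libraries, against 16.7% (15.8 to 17.5) and 21.96% (20.6 to 23.3) in the saline libraries. These are exact Clopper-Pearson intervals and cover counting error only. The libraries of a group differed by more than the groups did, with means of 22.3 ± 5.03% in METH and 19.3 ± 3.75% in saline (SD, n = 2 each). The difference of 2.98 percentage points had p = 0.667 in an exact two-sided permutation test over libraries, a design in which 0.333 is the smallest possible p. Without METH replicate 2 the difference was −0.577 points, without saline replicate 1 it was 0.328, without METH replicate 1 it was 6.53 and without saline replicate 2 it was 5.63. With each barcode thinned to 2000 UMIs the shares were 9.88% and 13.6% in METH, against 12.8% and 13.4% in saline, a difference of −1.38 points. That thinning left out 3615 and 3163 shallower barcodes of the METH libraries, against 8812 and 2695 of the saline libraries. At 5000 UMIs the shares were 19.5% and 26.7%, against 19.4% and 22.6%, with 6777 and 5615 barcodes left out, against 15847 and 5067. The plot of depth and shares by library shows the overlap of the groups at each of these depths.

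Layer markers that the rule did not use were read next, to check the L2/3 IT label. Levels are given as the mean CPM of the summed counts over 4 libraries, without a test, since the nuclei were chosen by expression. Fezf2, which directs subcortical projection, was at 0.54 CPM, against 7.04 in L4/5 IT and 4.52 in L6 IT nuclei. Cux1, the paralog of Cux2, was at 375 CPM, against 200.3 in L4/5 IT and 72.6 in L6 IT nuclei. Calb1, which encodes the calcium buffer calbindin, was at 48.9 CPM, against 10.4 and 6.91, and Cdh13, a cadherin without a transmembrane domain, was at 729 CPM, against 141 and 571. Lamp5 was also higher than in the other IT nuclei, at 28.5 CPM against 16.3 and 7.43, but below the 69.3 CPM of L5 ET nuclei. Cdh13 likewise was below the 1142 CPM of L5 ET nuclei, and Bcl11b, a deep-layer factor, was at 23.7 CPM, against 5.70 in L4/5 IT, 99.5 in L6 IT and 473 in L5 ET nuclei. Rasgrf2, another upper-layer marker, was not analysed here.

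Among genes outside the panels with at least 50 CPM, those that stood out most in L2/3 IT nuclei came from several functions. Ca12, a membrane carbonic anhydrase, was at 82.6 ± 10.4 CPM (SD, n = 4 libraries), which was 12.3 times the higher of its levels in L4/5 IT (4.87 CPM) and L6 IT (6.74 CPM) nuclei. Enpp2, which encodes autotaxin, the enzyme that makes lysophosphatidic acid, was at 288 ± 22.5 CPM, against 30.1 and 26.7. Rfx3, a transcription factor of the RFX family, was at 1581 ± 71.5 CPM, against 263 in L4/5 IT and 303 in L6 IT nuclei. Each of these was several times higher in L2/3 IT nuclei than in either of the other IT types. Matn2, an extracellular matrix protein, was at 121 CPM, against 5.45 and 12.6. Prex1, an exchange factor for Rac, was at 130 CPM, against 14.3 and 28.4, and Plk5, of the polo-like kinase family, was at 78.8 CPM, against 11.2 and 5.54. Some of these genes were shared with deep-layer projection neurons. Tox3 was at 141 CPM in L2/3 IT and 96.2 in L5/6 NP nuclei, the calcium release channel gene Ryr1 at 58.1 in L2/3 IT and 80.4 in L5 ET nuclei, and Pdzd2 at 237 in L2/3 IT and 255 in L5 ET nuclei.

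The genes that stood out on the low side included receptors. Il1rapl2, a synaptic adhesion protein related to the interleukin 1 receptor, was at 61.0 ± 24.2 CPM in L2/3 IT nuclei, against 2428 in L4/5 IT and 1373 in L6 IT nuclei. Grik3, which encodes a kainate receptor subunit, was at 8.52 CPM, against 106 and 340. Tox, an HMG-box factor, was at 82.7 CPM, against 754 and 799, Hs3st2, a heparan sulfate sulfotransferase, at 42.2 CPM, against 316 and 404, and Plcxd3 at 10.9 CPM, against 81.7 and 81.7. All 5 of these were lower in L2/3 IT nuclei than in both other IT types.

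Receptors and channels on the lists set the L2/3 IT nuclei apart in both directions. The metabotropic glutamate receptor genes Grm3 and Grm8 were at 346 and 198 CPM in L2/3 IT nuclei, against 1605 and 787 CPM in L4/5 IT and 658 and 1715 CPM in L6 IT nuclei. The adhesion gene Lrrtm4, whose product organizes excitatory synapses, was at 8971 CPM, against 3948 in L4/5 IT and 4754 in L6 IT nuclei. Kcnq3, a subunit of the M-type potassium channel, was at 995 CPM, against 2044 and 1633. Among monoamine receptors, the serotonin receptor gene Htr2c was at 4.45 CPM in L2/3 IT nuclei, against 125 in L4/5 IT and 12.8 in L6 IT nuclei, and the alpha-1B adrenergic receptor gene Adra1b was at 16.2 CPM, against 81.3 and 52.3. Adra1a and Htr2a were closer between types, at 89.9 and 76.2 CPM in L2/3 IT, 69.3 and 140 CPM in L4/5 IT, and 73.1 and 82.2 CPM in L6 IT nuclei. Few dopamine receptor UMIs were found. Drd1 was at 0.313 CPM and Drd2 at 0.569 CPM in L2/3 IT nuclei, against 22.5 CPM of Drd2 in L6 IT nuclei, and Drd4, Drd5 and the trace amine receptor gene Taar1 had 0 UMIs in the L2/3 IT nuclei of all 4 libraries, which allows a share of nuclei with a UMI of up to 0.248% to 0.390% per library (3 counts). Nr3c2, the mineralocorticoid receptor gene, was at 286 CPM in L2/3 IT nuclei, against 99.2 in L4/5 IT and 179 in L6 IT nuclei.

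**Figure D2:**
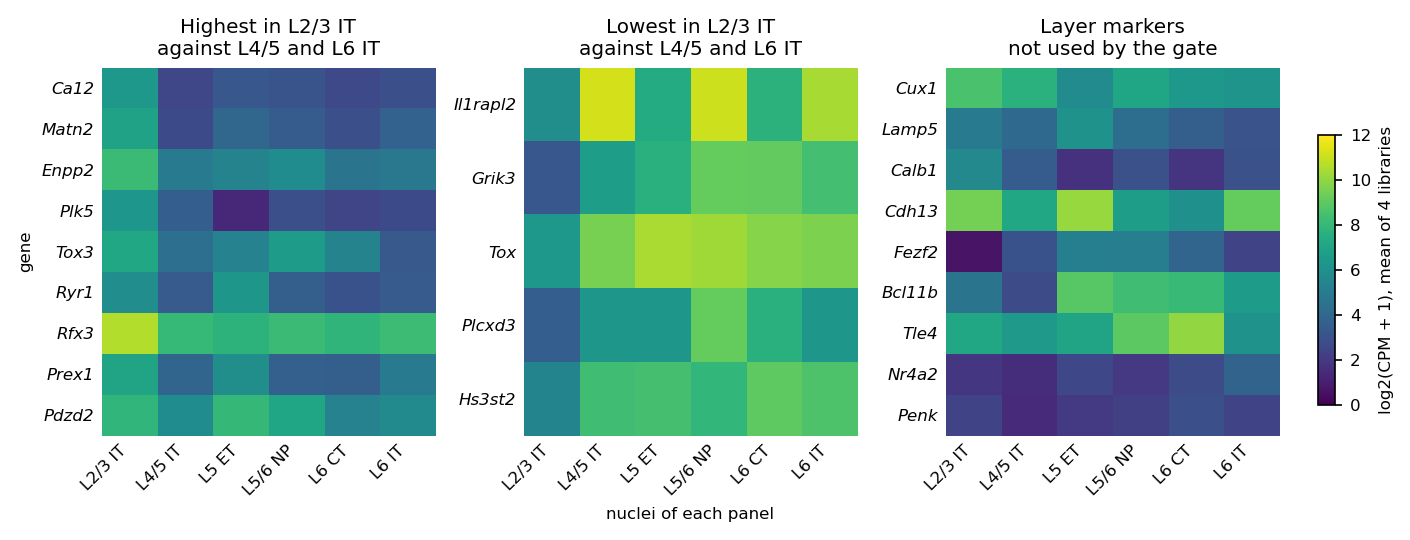
Mean log2(CPM + 1) over 4 libraries in the nuclei of 6 excitatory panels, for the genes highest in L2/3 IT nuclei relative to the other IT types, the genes lowest there, and layer markers. Ca12, Enpp2 and Rfx3 are brightest in L2/3 IT nuclei, and Il1rapl2, Grik3 and Tox are darker there than in L4/5 IT and L6 IT nuclei.

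METH was set against saline across all genes in the summed counts of L2/3 IT nuclei, to ask which genes differed after repeated METH. Cst3 rose and no other gene was called. Its product is cystatin C, which is secreted and inhibits cysteine proteases such as cathepsins. It was at 150 and 129 CPM in the METH libraries (752 and 891 UMIs), against 66.3 and 75.3 CPM in the saline libraries (326 and 478 UMIs). The groups did not overlap, with means of 139 ± 15.3 CPM in METH and 70.8 ± 6.35 CPM in saline (SD, n = 2 each). The log2 fold change was 0.98 (SE 0.096), with an adjusted p of 1.92e-05 in edgeR's quasi-likelihood test with Benjamini-Hochberg adjustment over 12390 genes. It ran from 0.86 to 1.09 in the 16 alternatives run. In those that kept all 4 libraries the adjusted p was at most 0.00205 (edgeR or DESeq2), and Cst3 was called in each.

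That call was 1 of 12390 genes, or 0.00807%, and 0 genes were called lower. At an unadjusted p under 0.05 there were 516 genes, or 4.16% of those tested, and DESeq2 called 1 gene and had 64 genes at an unadjusted p under 0.05. The count rose when a library was left out, in fits that have 1 library in a group and so no spread there. Such fits are read here as effect sizes. Without METH replicate 1 and METH replicate 2 the log2 fold change of Cst3 was 0.86 and 1.09. Without saline replicate 1 and saline replicate 2 it was 0.89 and 1.07. Over all genes tested, 1796 genes (14.5%) were higher in both METH libraries than in both saline libraries and 2089 (16.9%) were lower in both, and the median log2 fold change was 0.00049. In simulated data of the same design with 12217 genes, 49% of the genes set 1.5-fold apart and 97% of those set 2-fold apart were recovered. A further 9 genes were called falsely. The genes set apart were drawn from those with higher counts, and all genes had the same dispersion. These shares therefore do not cover genes with low counts.

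**Figure D3:**
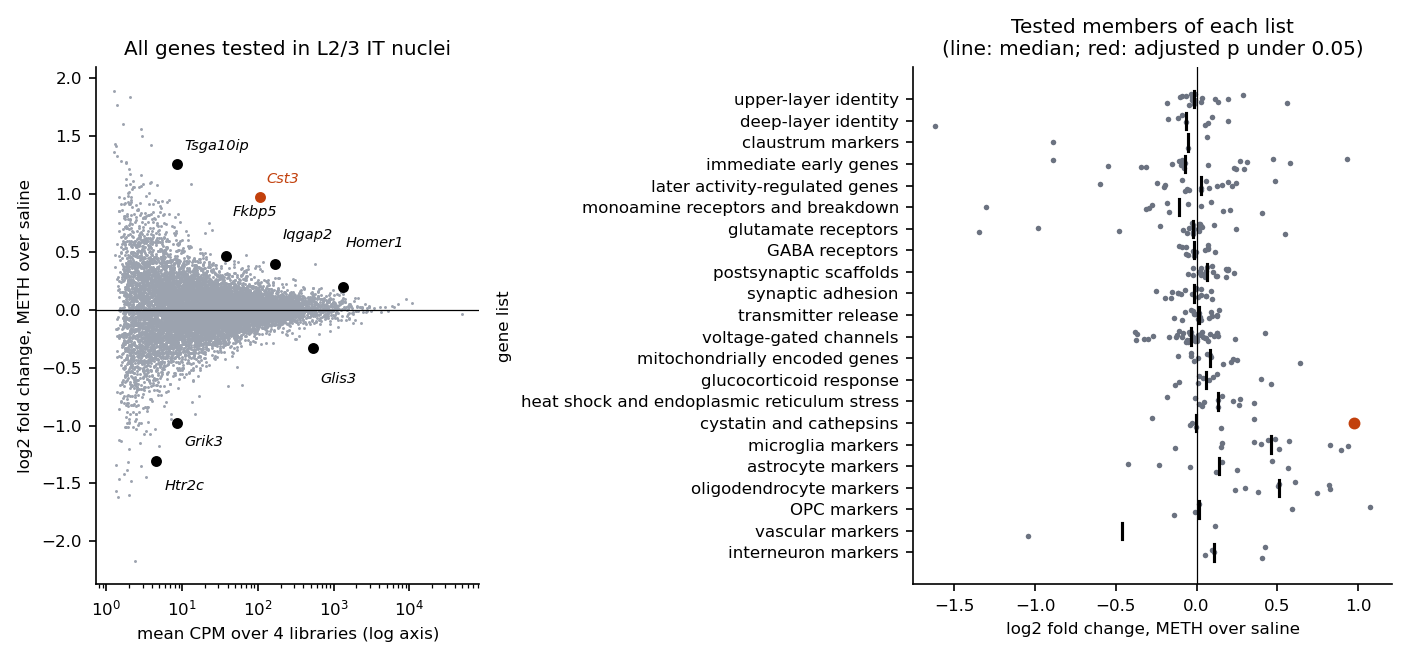
The log2 fold change of METH over saline in L2/3 IT nuclei against the mean CPM for all genes tested, and the log2 fold changes of the members of each gene list with the list median. Cst3, in red at 0.98, is the 1 gene called, and the list medians of synaptic, channel and activity genes lie close to 0.

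The rise of Cst3 was found in other nuclei as well. In L4/5 IT nuclei Cst3 was at 164 and 143 CPM in the METH libraries, against 82.5 and 87.5 in the saline libraries, a log2 fold change of 0.86 (SE 0.090, adjusted p = 0.00012, edgeR). In L6 IT nuclei it was at 135 and 118 CPM, against 58.6 and 67.6, a log2 fold change of 0.99 (SE 0.131, adjusted p = 0.00059). Cst3 was the 1 gene called in each of these types, 0.008% of 12499 genes in L4/5 IT and 0.00954% of 10480 genes in L6 IT nuclei. The METH effect on Cst3 in L2/3 IT nuclei minus that in L4/5 IT nuclei was 0.12 on the log2 scale (95% interval −0.07 to 0.32), and minus that in L6 IT nuclei it was −0.04 (−0.31 to 0.24). Neither difference passed the test. All of these comparisons rest on the same 4 libraries.

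Counted per nucleus, Cst3 was at a similar level in excitatory and inhibitory nuclei of a library. L2/3 IT nuclei held 0.978 and 1.03 Cst3 UMIs per nucleus in the METH libraries, against 0.270 and 0.588 in the saline libraries. Nuclei with Gad1 and Gad2, the genes of GABA synthesis, held 0.966 and 1.08, against 0.244 and 0.676. The share of L2/3 IT nuclei with a Cst3 UMI was 57.7% and 62.8% in METH, against 22.3% and 42.1% in saline, and the share of Gad1 and Gad2 nuclei was 60.8% and 61.3%, against 18.3% and 39.5%. Those inhibitory nuclei were shallower, with medians of 4106 and 4568 UMIs in METH, against 2410 and 4594 in saline. Nuclei with microglia markers held 5.26 and 5.19 Cst3 UMIs each in METH, against 2.73 and 4.96 in saline. In each of these kinds of nuclei the count per nucleus was lowest in saline replicate 1, the shallowest library.

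Cst3 followed the depth of a nucleus only weakly. Within each library the deeper L2/3 IT nuclei, those above the median, had 1.87 and 1.91 times the UMIs of the shallower ones in METH and 1.96 and 2.00 times in saline. They had 1.12 and 1.27 times the Cst3 UMIs per nucleus in METH, and 1.33 and 1.32 times in saline. RNA free in the suspension can enter every droplet, and its part in the Cst3 difference was not tested.

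**Figure D4:**
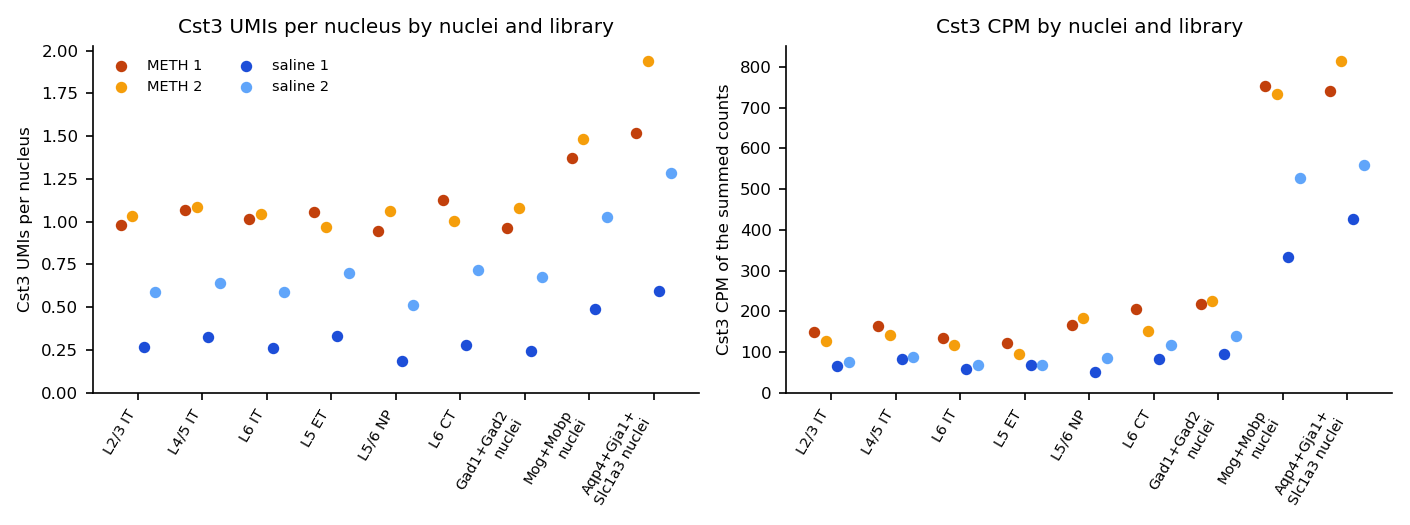
Cst3 UMIs per nucleus and Cst3 CPM in L2/3 IT nuclei and in other kinds of nuclei, by library with METH left of saline. The METH libraries hold about 1 UMI per nucleus in each neuronal type, at 0.978 and 1.03 in L2/3 IT nuclei.

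Markers of other cells were present at low levels in the L2/3 IT nuclei, and 0 of those tested were called between METH and saline. Of 12 microglia markers tested, 0 were called, 11 had a positive log2 fold change and 7 were higher in both METH libraries, where 14.5% of all genes tested were. Their median log2 fold change was 0.46. Their summed level was 133 and 132 CPM with METH, against 120 and 102 CPM with saline, and none of them was at 0 in all libraries. C1qb, a subunit of complement C1q, was at 7.39 and 6.92 CPM, against 4.07 and 3.46, a log2 difference of 0.94, and C1qa was at 9.38 and 10.7 CPM, against 8.95 and 6.61. All 9 oligodendrocyte markers had positive values with a median of 0.51, 1 of them with separate groups, and their sum was 325 and 169 CPM with METH, against 187 and 173 with saline. That 1 gene was Mal, a myelin proteolipid, at 11.6 and 10.7 CPM with METH, against 6.10 and 6.45 with saline. Of 8 astrocyte markers tested, 0 were called, 1 was higher and 2 were lower in both METH libraries, with a sum of 189 and 195 CPM, against 213 and 146. Apoe, the main lipid carrier of glia, was at 76.5 and 81.3 CPM, against 74.4 and 42.3. Its log2 difference was 0.91 without saline replicate 1 and 0.10 without saline replicate 2. Slc1a2, the main glutamate transporter gene of astrocytes, was at 28.4 and 33.3 CPM, against 50.01 and 34.9. Its log2 difference was −0.68 without saline replicate 2 and −0.16 without saline replicate 1. Of 12 interneuron markers, 5 were tested and 0 called, with summed levels of 99.4 and 52.5 CPM, against 85.4 and 46.9.

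Without the subclusters led by genes of other cell types, the microglia sum was 99.1 and 112 CPM with METH, against 102 and 86.3 CPM with saline, and the oligodendrocyte sum was 154 and 141, against 133 and 122. The log2 fold change of Cst3 without them was 0.99, with an adjusted p of 9.13e-05 in edgeR's test. The Cst3 difference was as large without these nuclei, while markers of other cells were still present in the sums. Whether RNA of other cells had a part in it was not tested.

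Beyond Cst3, the genes with the smallest p-values did not pass the adjustment and are given as values. On the higher side, Tsga10ip was at 9.38 and 14.7 CPM with METH, against 5.08 and 5.20 with saline, a log2 fold change of 1.26 (SE 0.263, adjusted p = 0.488, edgeR). Iqgap2, a scaffold of the actin cytoskeleton, was at 185 and 202 CPM, against 136 and 160, a log2 fold change of 0.39 (SE 0.084, adjusted p = 0.488). The groups were separate for both genes, by a narrower margin for Iqgap2. Ptgds, which encodes prostaglandin D2 synthase, was at 23.6 and 26.0 CPM, against 15.2 and 16.2. The adaptor gene Dok5 was at 122 and 118 CPM, against 87.8 and 102, and the membrane protein gene Tm4sf4 at 81.3 and 84.5, against 59.6 and 68.6. These differences were 0.66, 0.35 and 0.37 on the log2 scale. With a library left out, log2 values ran from 0.87 to 1.52 for Tsga10ip and 0.28 to 0.52 for Iqgap2. They ran from 0.25 to 0.46 for Dok5 and 0.28 to 0.49 for Tm4sf4. With no filter on low counts, Tsga10ip and Iqgap2 were called, each with an adjusted p of 0.00343. In L4/5 IT and L6 IT nuclei the log2 fold changes of Tsga10ip were 1.33 and 1.23, and those of Ptgds 0.62 and 0.53. Those of Dok5 were 0.19 and 0.22, those of Tm4sf4 0.21 and 0.45, and those of Iqgap2 −0.15 and 0.21.

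On the lower side, the smallest p belonged to Glis3, a gene of the rule itself. It was at 448 and 497 CPM with METH, against 632 and 563 with saline. The log2 fold change was −0.33 (SE 0.073, adjusted p = 0.488, edgeR), and it ran from −0.41 to −0.24 with a library left out. Nuclei were chosen on Glis3 UMIs, so its level is set in part by the rule and is not read as a METH effect. Cux2 was at 636 and 625 CPM, against 694 and 652, and Otof at 127 and 114, against 150 and 125, while Slc17a7, the vesicular glutamate transporter gene, was at 306 and 302, against 318 and 341. Vom2r77, a vomeronasal receptor gene, was at 0.80 and 0.87 CPM with METH, against 5.08 and 2.83 with saline, and Vom2r53 at 3.79 and 2.31, against 7.12 and 6.45. Both belong to a family of near-identical copies that counting may split, so these values are uncertain. Nmrk1, a nicotinamide riboside kinase, was at 11.6 and 13.0 CPM, against 23.4 and 18.7, a log2 fold change of −0.75 (SE 0.181, adjusted p = 0.637). Tacr3, the neurokinin B receptor gene, was at 2.60 and 2.74 CPM, against 7.52 and 5.82, a log2 fold change of −1.29 (SE 0.325, adjusted p = 0.738). Aunip, a partner of Aurora kinase A, was at 4.79 and 4.90 CPM, against 9.96 and 8.97. With a library left out, log2 values ran from −2.56 to −1.73 for Vom2r77 and −0.91 to −0.59 for Nmrk1. With no filter on low counts, Vom2r77 was called (adjusted p = 0.0205, edgeR), as was Glis3, whose level the rule sets in part.

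Lists of genes for synapses, receptors, channels, activity and stress were then read member by member. They held 335 genes, of which 292 were tested, and 1 of 22 lists had a called member, the list of cystatin and cathepsins with Cst3. In each of the other 21 lists 0 members were called.

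Immediate early genes, which neurons switch on within minutes of activity, had no called member. Of 20 tested, 9 had positive and 11 negative log2 fold changes, with a median of −0.07. Fos was at 3.79 and 6.78 CPM with METH, against 4.47 and 2.99 with saline, Arc at 8.39 and 12.8, against 11.2 and 12.9, and Npas4 at 4.59 and 10.2, against 5.08 and 5.98. Egr1 was at 23.6 and 25.2 CPM, against 24.2 and 18.1. The groups overlapped for Fos, Arc and Npas4 and for Egr1. Fosb, whose stable splice form is known from repeated stimulant exposure in the striatum, was at 3.79 and 8.51 CPM, against 3.05 and 3.62, a log2 difference of 0.93 (SE 0.363) with the groups separate. Without METH replicate 2 the Fosb difference was 0.18. Dusp1, a phosphatase of MAP kinases, was at 9.98 and 10.1 CPM, against 12.6 and 16.7. Among 18 later activity-regulated genes the median was 0.03. Bdnf, the neurotrophin gene, was at 46.5 and 50.5 CPM, against 50.2 and 64.9, and Pcsk1, a prohormone convertase, at 19.4 and 20.6, against 12.6 and 15.9.

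Of 12 monoamine receptor and breakdown genes tested, 5 had positive and 7 negative values, with a median of −0.11. Htr2c was at 3.59 and 1.59 CPM with METH, against 8.54 and 4.09 with saline, a log2 difference of −1.30 (SE 0.432). With a library left out, the Htr2c difference ran from −1.93 to −0.72. Adra1a was at 101 and 88.3 CPM, against 85.8 and 84.2, and Htr2a at 68.9 and 93.5, against 68.5 and 74.0. Htr2a values thus came within 1 CPM of each other in the first METH and saline replicates.

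Glutamate receptor genes were centred on 0, with 9 of 22 positive and a median of −0.02. Grik3 was at 4.79 and 6.35 CPM with METH, against 14.4 and 8.50 with saline, a log2 difference of −0.98 (SE 0.279). With a library left out the difference ran from −1.34 to −0.58. Grin2c, an NMDA receptor subunit gene, was at 1.60 and 1.59 CPM, against 4.88 and 3.46, and Grm2, an autoreceptor gene, at 17.2 and 17.0, against 23.6 and 24.4. These 3 genes were lower in both METH libraries, as was Grin1, the obligatory NMDA receptor subunit gene, at 627 and 643 CPM, against 647 and 672. Grin3a was higher in both, at 17.8 and 16.9 CPM, against 15.5 and 14.0. The groups overlapped for the remaining genes tested, with Grin2b at 2956 and 2939 CPM with METH, against 2767 and 3038 with saline, and Gria2 at 2638 and 2703, against 2773 and 2672. Of 14 GABA receptor genes, 5 were positive and 9 negative, and their log2 differences lay between −0.11 and 0.12.

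Postsynaptic scaffold genes had mostly small positive values. Of 22 tested, 19 were positive and 3 negative, between −0.05 and 0.23, with a median of 0.06, and 8 were higher in both METH libraries, where 14.5% of all genes were. Dlg1, which encodes SAP97, was at 895 and 920 CPM with METH, against 837 and 834 with saline, a log2 difference of 0.13 (SE 0.061). Neto2, an auxiliary subunit of kainate receptors, was at 142 and 148 CPM, against 119 and 137, a difference of 0.18 (SE 0.084). Synaptic adhesion genes were split, with 7 of 18 positive, and Lrrtm4 was at 9122 and 9330 CPM, against 8565 and 8869, while Nlgn1, the gene of neuroligin 1, was at 6442 and 6368, against 6331 and 6316. Of 17 genes of transmitter release, 10 were positive and 7 negative.

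Voltage-gated channel genes had values of both signs. Of 41 tested, 17 were positive and 24 negative, with a median of −0.03, and 0 were called. In both METH libraries 13 were lower and 3 were higher, where 16.9% and 14.5% of all genes were. Scn3b, a sodium channel beta subunit, was at 167 and 176 CPM with METH, against 137 and 154 with saline, a log2 difference of 0.24. Kcna2, a delayed rectifier potassium channel of axons, was at 16.0 and 18.5 CPM, against 25.01 and 20.8, a difference of −0.38. Both genes had separate groups and neither passed the adjustment.

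Glucocorticoid response genes, which stress hormones induce through their receptors, were read as well. Of 10 tested, 8 were positive and 2 negative, with a median of 0.06. Fkbp5, whose product binds the glucocorticoid receptor as a co-chaperone, was at 39.3 and 47.7 CPM with METH, against 27.4 and 36.1 with saline, a log2 difference of 0.46 (SE 0.137). Its unadjusted p was 0.00327 and its adjusted p 1.00 in edgeR's test. With a library left out the Fkbp5 difference ran from 0.29 to 0.68. Zbtb16, a zinc finger repressor, was at 161 and 200 CPM, against 117 and 158. It was called with no filter on low counts (adjusted p = 0.0133, edgeR). With a library left out its log2 difference ran from 0.21 to 0.65. Of 12 heat shock and endoplasmic reticulum stress genes, 10 were positive, with a median of 0.13. The 13 mitochondrially encoded genes summed to 666 and 376 CPM, against 534 and 461, with 0 of 13 separating the groups.

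The METH effect in L2/3 IT nuclei was then set against that in the neighbouring IT types gene by gene. Of 12966 genes tested against L4/5 IT nuclei, 0 were called in edgeR's quasi-likelihood test, 627 (4.84%) had an unadjusted p under 0.05, and DESeq2 called 0 with 29 at that level. With a library left out calls appeared, in fits that have 1 library in a group. Of 12265 genes tested against L6 IT nuclei, 0 were called, 570 (4.65%) had an unadjusted p under 0.05, and DESeq2 called 0 with 25 at that level. Here calls appeared in some of the fits with a library left out. In simulated data, a difference of 2-fold between effects was recovered for 61% of the changed genes against L4/5 IT and 56% against L6 IT nuclei. One of 1.5-fold was recovered for 15% and 7%. The changed genes were again drawn from those with higher counts, and the dispersion was the same fixed value.

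The genes of smallest p in these differences are given as values only. Homer1, a postsynaptic scaffold gene with an activity-induced short form, was in L2/3 IT nuclei at 1592 and 1228 CPM with METH, against 1143 and 1332 CPM with saline. In L4/5 IT nuclei it was at 2040 and 1370 CPM with METH, against 1154 and 1301 CPM with saline, which makes the effect in L2/3 IT nuclei lower by a log2 difference of −0.27 (adjusted p = 0.257, edgeR). The METH libraries were both above the saline libraries in L4/5 IT nuclei, and overlapped with them in L2/3 IT nuclei. Iqgap2 was in L4/5 IT nuclei at 53.7 and 42.3 CPM with METH, against 46.5 and 60.1 CPM with saline, so that its difference of effects was 0.55. Pcdh17, a protocadherin, was in L2/3 IT nuclei at 143 and 127 CPM with METH, against 124 and 147 CPM with saline. In L4/5 IT nuclei it was at 60.2 and 63.2 CPM, against 90.0 and 83.2 CPM, a difference of effects of 0.47. Me3, a mitochondrial malic enzyme, had a difference of 0.38, Tacr3 one of −1.36 and the ubiquitin ligase gene Marchf1 one of −0.39. Against L6 IT nuclei the smallest p-values belonged to Dnajc2 at 0.45 and the protease inhibitor gene Serpine2 at 1.11 on the higher side, and to Prkd1, a protein kinase D gene, at −0.50, Grik3 at −0.98 and the potassium channel subunit gene Kcnab1 at −0.37 on the lower side, each with an adjusted p of 0.424. Afap1l2 was also among them, and its METH libraries were at 0 UMIs in L6 IT nuclei.

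Within the L2/3 IT nuclei, clustering without the genes of the rule gave 7 subclusters, whose leading genes describe how the nuclei were split and are no test. Subcluster 1, with 1158 nuclei, was led by Pld5, Grm8, Kcnh5 and Hs3st5. Over all L2/3 IT nuclei Grm8 was at 198 CPM, against 787 CPM in L4/5 IT nuclei, and the potassium channel gene Kcnh5 was at 279 CPM, against 1330 CPM. Subcluster 3, with 671 nuclei, was led by Gpc3, the neurotrophin 3 gene Ntf3, Inpp4b and the cadherin genes Cdh9 and Cdh13, and had 1061 CPM of Glis3, against 454 CPM in the other L2/3 IT nuclei. Subcluster 4, with 626 nuclei, was led by Abi3bp, Serinc2, Smoc1 and Sorcs3 and had Plk5 and Ca12 among its leading genes. Subcluster 6, with 468 nuclei, was led by Ndst4, the receptor tyrosine kinase genes Met and Ros1, and Ptpro.

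Subcluster 2, with 470 nuclei, was led by activity genes, among them the nuclear receptor genes Nr4a3 and Nr4a1, Arc, Egr4, Fosl2, Homer1 and Npas4. Nr4a3 was at 195 CPM there, against 16.1 CPM in the other L2/3 IT nuclei, Arc at 54.7, against 4.59, and Npas4 at 29.7, against 2.65. Its share of L2/3 IT nuclei was 16.8% and 14.0% in METH, against 8.35% and 14.6% in saline. The lowest share was that of the shallow saline replicate 1, and METH replicate 2 was below saline replicate 2. Homer1 in this subcluster was at 4148 and 2787 CPM with METH, against 3008 and 3159 with saline, with METH replicate 1 highest.

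Subclusters 5 and 7, with 219 and 43 nuclei, were led by genes of other cell types. Subcluster 5 had Bcas1, Mog, Sox6, Vcan and Slc1a3, genes of the oligodendrocyte lineage and of astrocytes, and 79.0% of its nuclei were among those that Scrublet scored highest as doublets. Subcluster 7 had Erbb4, Grik1, Kcnip1, Reln and Adarb2, genes of interneurons, and 67.4% were scored so. Both stayed in the sums, and they held 77 and 48 nuclei of the METH libraries, against 96 and 41 of the saline libraries. Across all L2/3 IT nuclei, doublet scores marked 10.0% and 5.67% in METH, against 7.94% and 7.38% in saline.

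Cst3 was higher in both METH libraries than in both saline libraries in 6 of the 7 subclusters. In subcluster 1 it was at 129 and 113 CPM with METH, against 53.0 and 70.3 with saline, and in the activity-gene subcluster 2 at 133 and 114, against 58.9 and 71.0. In subcluster 4 it was at 117 and 146 CPM, against 54.5 and 56.2, and in subcluster 6 at 141 and 136, against 54.9 and 62.5. Subcluster 3 had 207 and 121 CPM, against 80.0 and 109, with a narrow gap between METH replicate 2 and saline replicate 2. Subcluster 5, led by glial genes, had 274 and 203 CPM, against 129 and 144. In the small subcluster 7 the groups overlapped, with 5 and 5 Cst3 UMIs in METH, against 13 and 0 in saline. The shares of subcluster 3 were 12.6% and 14.5% in METH, against 27.1% and 14.9% in saline, and the high value again belonged to saline replicate 1, whose nuclei there had a median of 2889 UMIs.

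**Figure D5:**
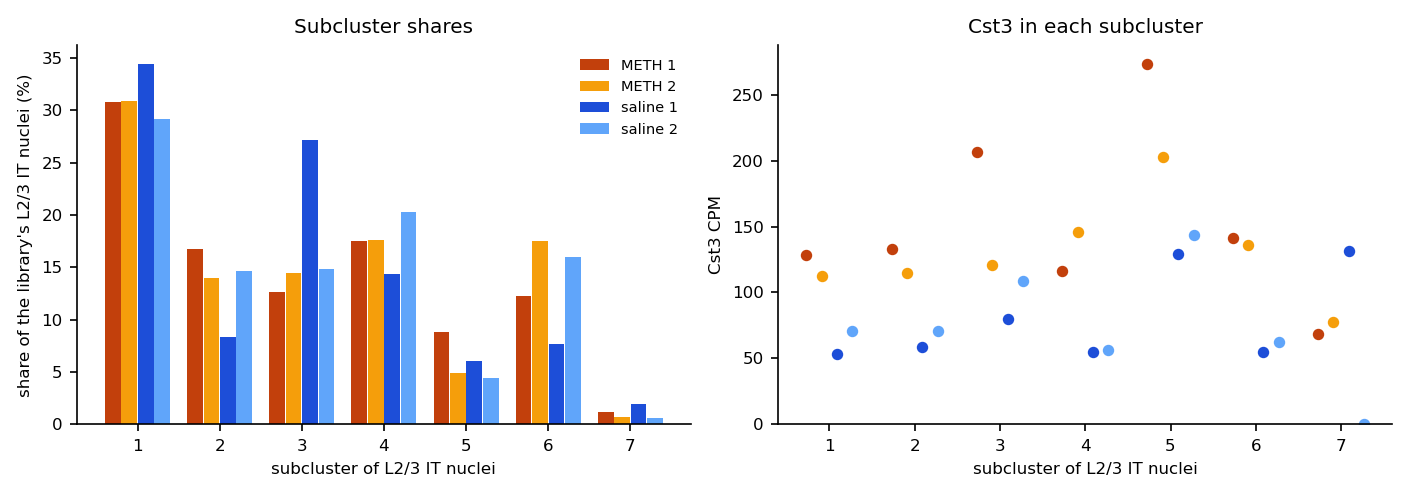
Share of L2/3 IT nuclei in each of 7 subclusters, and Cst3 CPM in each subcluster, by library with METH left of saline. Saline replicate 1 has the highest share of subcluster 3, at 27.1%, and the lowest of subcluster 2, at 8.35%, and Cst3 is higher in METH in subclusters 1 to 6.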

How the data were processed

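Nuclei of the orbitofrontal cortex were counted by the authors as whole UMI counts per gene and barcode, deposited as 1 matrix per library, with Cell Ranger 7.0.0 named in the submitters' processing notes. Those notes name a human genome build, while the deposited gene identifiers are those of rat Ensembl genes. The deposited matrices hold 25399 genes, of which 148 share a symbol, and 46633 barcodes, each with at least 500 UMIs.

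Barcodes with at least 500 genes and at most 5% of UMIs from the 13 mitochondrial genes were kept. Excitatory and L2/3 IT nuclei were then chosen by the UMI rule given above. The library was the replicate, and counts of its nuclei were added up, with 2 METH and 2 saline libraries. Summed counts were tested with edgeR 4.0.16 in R 4.3.3 (quasi-likelihood test, robust, TMM, filterByExpr, two-sided, Benjamini-Hochberg adjustment, calls under 0.05). The difference of METH effects between types was the class-by-treatment term with library as a block. The alternatives were DESeq2 1.42.0, RLE size factors, no filter on low counts, a non-robust fit, a replicate block, each library left out, and 7 choices of nuclei. One of these, leaving out subclusters led by genes of other cell types, was chosen after seeing the data. The tests were checked on simulated counts. Doublets were kept in the main sums. Scrublet, run in Scanpy 1.11.5, marked the top-scoring 0.8% per 1000 barcodes, and these were removed in an alternative. Subclusters used 2000 variable genes, 20 components and resolution 0.5, without the 22 genes of the rule.

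Named genes were the called genes, otherwise the 6 of smallest p per direction, the 3 per direction for differences of effects, the called or else 2 smallest-p members of each list, a fixed set of activity, receptor and rule genes, and, for levels, the 10 highest and 5 lowest against both other IT types. Other genes given for their levels or as list examples (Grin1, Grin3a, Grin2b, Gria2, Kcnh5, Nlgn1, Grm3, Grm8, Lrrtm4, Kcnq3, Adra1b, Nr3c2 and the activity genes of subcluster 2) were chosen after their values were seen. A few genes that the rules name are not reported here. The members and lists were chosen with earlier results of these data known. Same-numbered replicates did not deviate together (correlation 0.038), so the numbers were not used to pair libraries.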

Additional observations from a re-analysis of the deposited data

How the results depend on the processing

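The count of genes called between METH and saline in L2/3 IT nuclei was 11 with no filter on low counts, 7 with the replicate block and between 13 and 93 with a library left out, against 1 as reported. The other settings gave 1. The replicate block shares only a number between libraries. Its 7 calls, 5 higher and 2 lower, included Tsga10ip, Iqgap2 and Zbtb16 (adjusted p = 0.0190 each, edgeR). Glis3, a gene of the rule, was also among them and is not read as a METH effect. For the difference from L4/5 IT nuclei, 7 genes were called with no filter on low counts, 11 with doublets removed and between 4 and 20 with a library left out, against 0 as reported. For the difference from L6 IT nuclei, 1 was called with doublets removed and between 0 and 6 with a library left out. The cause was not tested. The difference in L2/3 IT share was −1.38 points at 2000 UMIs per barcode and between −0.577 and 6.53 with a library left out.

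Over 63 named genes and 16 alternatives, 999 values could be compared, of which 959 kept direction and call, 29 became calls and 11 changed sign. The sign changes were in genes that were not called: Pdgfra at −0.0010 with doublets removed, and Vtn at −0.0943 with a panel minimum of 5 UMIs and −0.0607 with equal numbers of nuclei. With a library left out, log2 values ran from −0.16 to 0.56 for Vtn, −0.16 to 0.0516 for Synpr, −0.14 to 0.0068 for Gabrg3, −0.10 to 0.26 for Mt-co1, −0.28 to 0.95 for Sst, −0.52 to 0.0878 for Arc and −0.27 to 0.88 for Npas4. With 2 libraries per group, differences under 2-fold may be missed, and the simulated data do not cover larger ones in genes with low counts. At the depth of saline replicate 1 low genes rest on few UMIs.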
